A study of Mus musculus with 2 samples.

Results

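The 9 genes described here belong to the PI3K, mTOR and Foxo3 system that holds primordial follicles dormant or lets them grow. They are Foxo3, Tsc1, Tsc2, Mtor, Rptor, Akt1, Pdpk1, Rps6kb1 and Pik3ca, a list given by name from their known roles with no threshold on a measured value, out of 31057 genes in the deposited matrices. The list was chosen with earlier results of these data known. The cells came from whole ovaries of CD1 female mice, dissociated at postnatal day 2, and made up 2 libraries (replicate 1 and replicate 2) of the 10x Genomics Chromium 3′ chemistry. A unique molecular identifier (UMI) lets each captured transcript count once. No treatment or genotype was compared. Each library pooled the ovaries of several pups of a single female, so the spread between the 2 libraries (n = 2) covers pools of littermates and not single animals. The study collected them at the age when the reserve of primordial follicles has formed. All 9 genes were compared between cell types of the ovary, and between germ cells with high and low transcript levels of Zp3, a zona pellucida gene that oocytes switch on as they grow.

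In the oocyte of a primordial follicle, growth factor receptors such as Kit activate the class I PI3 kinase, whose alpha catalytic subunit is the product of Pik3ca. Its lipid product brings the kinase PDK1 (Pdpk1) and AKT (Akt1) together at the membrane, and active AKT phosphorylates the transcription factor FOXO3, which then leaves the nucleus. Mice without Foxo3 activate all their primordial follicles early, and so do mice whose oocytes lack Tsc1 or Tsc2. TSC1 and TSC2 form the complex that restrains the small GTPase Rheb and through it mTOR complex 1, which holds the kinase Mtor and the adaptor Rptor and signals to ribosomal S6 kinase (Rps6kb1). These steps run through phosphorylation and relocation of proteins, which transcript counts do not measure.

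The 3 stretches of upstream sequence below are shown because they belong to members on which the results turn: Foxo3 and Akt1, the highest and the lowest in germ cells by fold change, and Mtor, which is described in most detail in the split of germ cells by Zp3. They come from RefSeq (build GRCm38.p6), run 5′ to 3′ on the strand of the gene, and stop before the annotated gene begins. Capitals mark matches on either strand to 5 short motifs, namely the GC box GGGCGG, the CCAAT box, the forkhead core GTAAACA, the E-box CACGTG and a NOBOX core TAATTG. Of 32851 windows of 250 bases upstream of all RefSeq gene starts, 32.7% held the GC box, 33.8% the CCAAT box, 3.17% the forkhead core, 6.02% the E-box and 7.17% the NOBOX core.
Foxo3, chr10:42276756-42276945, minus strand, 190 bases: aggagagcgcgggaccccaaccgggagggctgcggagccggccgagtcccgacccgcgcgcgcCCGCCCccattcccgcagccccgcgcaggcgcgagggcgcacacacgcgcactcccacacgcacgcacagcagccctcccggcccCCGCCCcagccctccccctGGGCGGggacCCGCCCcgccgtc
Mtor, chr4:148448332-148448581, plus strand, 250 bases: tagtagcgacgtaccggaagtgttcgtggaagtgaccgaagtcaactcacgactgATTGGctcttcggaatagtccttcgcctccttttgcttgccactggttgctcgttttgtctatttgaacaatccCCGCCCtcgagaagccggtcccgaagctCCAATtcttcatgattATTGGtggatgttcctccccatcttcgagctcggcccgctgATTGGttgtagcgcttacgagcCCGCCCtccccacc
Akt1, chr12:112674885-112675134, minus strand, 250 bases: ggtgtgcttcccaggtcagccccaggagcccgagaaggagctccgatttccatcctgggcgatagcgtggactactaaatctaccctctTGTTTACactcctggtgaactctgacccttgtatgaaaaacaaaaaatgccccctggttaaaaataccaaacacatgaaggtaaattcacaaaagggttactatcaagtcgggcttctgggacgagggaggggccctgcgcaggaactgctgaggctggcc
The stretch before Foxo3 held 4 GC boxes and that before Mtor 2 GC boxes and 4 CCAAT boxes. The Akt1 stretch held no GC box and the single forkhead core found in any window of the 9 genes. A second RefSeq start of Akt1, whose window lies inside the annotated gene and is not shown, had 4 GC boxes and 78.4% G and C. The full 250-base window of Foxo3 was 76.4% G and C against a median of 52.4% over all windows. Windows of all 9 members were found, and none held the E-box or the NOBOX core. A match is a run of letters and was not tested as a binding site.

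Cells were assigned to a type when marker UMIs of 1 type, and of no other, passed a threshold: Ddx4, Dazl and Ooep for germ cells, Foxl2, Fst and Wnt6 for granulosa cells, Col1a2 and Dcn for interstitial cells, and Upk3b for mesothelial cells. This gave 231 and 661 germ cells, 1523 and 503 granulosa cells, 1377 and 2404 interstitial cells, and 116 and 184 mesothelial cells in replicates 1 and 2. Germ cells were by far the deepest, with medians of 76929 and 48534 UMIs per cell against 9947 and 9716 in granulosa, 6531 and 5041 in interstitial, and 14189 and 11749 in mesothelial cells. Genes outside the gates followed the labels for germ, interstitial and mesothelial cells. Of 6 granulosa genes outside the gate, Amh, Hsd17b1 and Nr5a2 were highest in granulosa cells, whereas Lgr5, Irx3 and Gng13 were higher in the mesothelial cells, which also carried 339 and 325 CPM of Wnt6 (CPM, UMIs of a gene per 1000000 UMIs of the summed cells). Germ cells of the 2 libraries fell largely into different clusters (198 of the 209 cells of one came from replicate 1, and 433 of the 441 cells of another from replicate 2), and germ cells of replicate 2 carried 57.5 CPM of granulosa gate genes against 6.72 in replicate 1. Erythroid genes stood at 1052 and 1367 CPM in granulosa and interstitial cells of replicate 2 and at 142 and 31.1 CPM in those of replicate 1, while the summed endothelial, immune and perivascular markers stayed under 198 CPM in every gated type. The part of these differences in the results was not tested. Zp3, which somatic cells should lack, was at 2.83 to 4.74 CPM in them and at 1281 and 769 in germ cells. The 2 libraries shared 21 cell barcodes.

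In germ cells, 5 members were higher than in the other cell types, 3 were lower and 1 was not called. Foxo3, Pdpk1, Tsc2, Mtor and Tsc1 were higher, Akt1, Rps6kb1 and Pik3ca were lower, and the 2 libraries moved the same way for each. Over all 15348 genes tested, germ cells were higher for 42.1% and lower for 35.0%, 77.1% in all, so that 8 of 9 members called is close to the share of any gene. The members had a median log2 fold change of 0.55 against 0.11 for all genes. A call means an adjusted p under 0.05 (edgeR quasi-likelihood test with Benjamini-Hochberg adjustment over all genes tested) between germ cells and the equally weighted mean of the other 3 types.

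**Figure D1:**
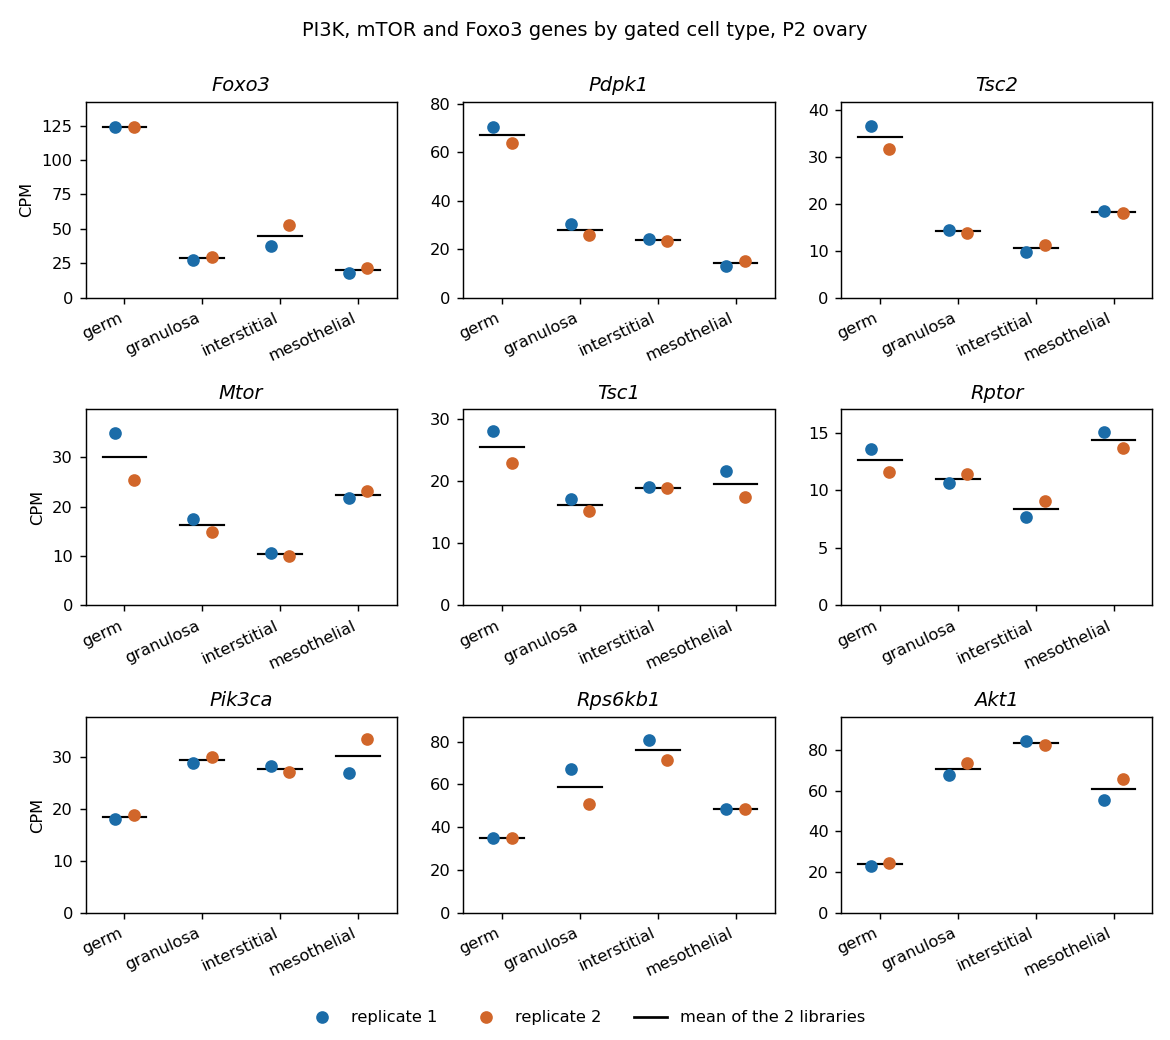
CPM of the 9 members (vertical axes, linear, from 0) in the summed cells of each gated type, with 1 point per library and a line at the mean of the 2 libraries. Germ cells had the highest mean of the 4 types for Foxo3 (124), Pdpk1 (67.2), Tsc2 (34.2), Mtor (30.1) and Tsc1 (25.5). They had the lowest for Rps6kb1 (35.2), Akt1 (23.9) and Pik3ca (18.4).

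Foxo3 (ENSMUSG00000048756, chromosome 10, 42181841 to 42276755, minus strand, GRCm38), the transcription factor that keeps the oocyte dormant, had 123.97 and 124.07 CPM in germ cells of replicates 1 and 2. It had 37.8 and 52.5 in interstitial, 27.5 and 29.6 in granulosa, and 17.9 and 21.9 in mesothelial cells. The germ cell values lay above all others, without overlap. The difference was 4.38-fold (log2 2.13, SE 0.14, adjusted p = 2.01e-06 by edgeR) and was larger than the spread between libraries. Foxo3 was the member with the largest difference between germ and other cells.

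Pdpk1 (ENSMUSG00000024122, chromosome 17, 24073680 to 24150924, minus strand) encodes PDK1, the kinase that phosphorylates AKT in its activation loop. It had 70.7 and 63.8 CPM in germ cells against 30.4 and 25.8 in granulosa, 24.3 and 23.3 in interstitial, and 13.2 and 15 in mesothelial cells. Germ cells stood apart from every other sum, 3.30-fold higher (log2 1.72, SE 0.11).

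The 2 genes of the TSC complex were both higher in germ cells, by unequal amounts. Tsc2 (ENSMUSG00000002496, chromosome 17, 24595816 to 24632630, minus strand), whose product is the GTPase activating subunit, had 36.6 and 31.8 CPM in germ cells, 18.4 and 18.1 in mesothelial, 14.5 and 13.8 in granulosa, and 9.66 and 11.3 in interstitial cells. It was 2.55-fold higher in germ cells (log2 1.35, SE 0.12). Tsc1 (ENSMUSG00000026812, chromosome 2, 28641228 to 28691167, plus strand), the stabilizing partner, had 28 and 22.9 in germ cells against 15.2 to 21.7 in the other sums. Its germ cell values lay closest to those of the other types among the 5 higher members, and the difference was 1.46-fold (log2 0.55, SE 0.13). The annotated Tsc2 gene overlaps Pkd1 on the other strand by 693 bases, and whether counting used strand is not given in the sources used here. Pkd1 was lower in germ cells, at 8.0 and 7.53 CPM, than in the other types, where it had 17.9 to 32.1.

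Mtor (ENSMUSG00000028991, chromosome 4, 148448611 to 148557683, plus strand), the kinase of both mTOR complexes, had 34.9 and 25.4 CPM in germ cells, 21.7 and 23.2 in mesothelial, 17.6 and 14.9 in granulosa, and 10.65 and 10.005 in interstitial cells. The replicates of germ cells differed more for Mtor than for the other members, yet both exceeded every other sum. The difference was 2.00-fold (log2 1.00, SE 0.13). When each cell was thinned to 2000 UMIs, the calls for Mtor (log2 0.49, adjusted p = 0.22 by edgeR) and for Tsc1 (log2 0.08, adjusted p = 0.87) were lost. Rptor (ENSMUSG00000025583, chromosome 11, 119602905 to 119899576, plus strand), the adaptor that gives mTOR complex 1 its substrates, had 13.6 and 11.6 in germ cells and 7.69 to 15.1 elsewhere, with overlap. It was not called (log2 0.25, SE 0.14, adjusted p = 0.14 by edgeR), and thinning turned its direction (log2 -0.72).

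Akt1, the S6 kinase gene and Pik3ca made up the lower group. Akt1 (ENSMUSG00000001729, chromosome 12, 112653821 to 112674884, minus strand) had 23.2 and 24.6 CPM in germ cells against 67.8 and 73.6 in granulosa, 84.3 and 82.3 in interstitial, and 55.7 and 65.6 in mesothelial cells. No other sum came near the germ cell values, and the difference was 2.83-fold (log2 -1.50, SE 0.13). Rps6kb1 (ENSMUSG00000020516, chromosome 11, 86498871 to 86544805, minus strand) had 35.1 and 35.2 in germ cells against 48.5 to 80.8 elsewhere, 1.64-fold lower (log2 -0.71, SE 0.14). Its gene overlaps Rnft1 on the other strand by 155 bases, and Rnft1 had 37.8 and 41.0 CPM in germ cells, between the interstitial values and those of the other types. Pik3ca (ENSMUSG00000027665, chromosome 3, 32397671 to 32468486, plus strand) had 18 and 18.8 in germ cells against 26.9 to 33.5 elsewhere, 1.51-fold lower (log2 -0.59, SE 0.13).

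**Figure D2:**
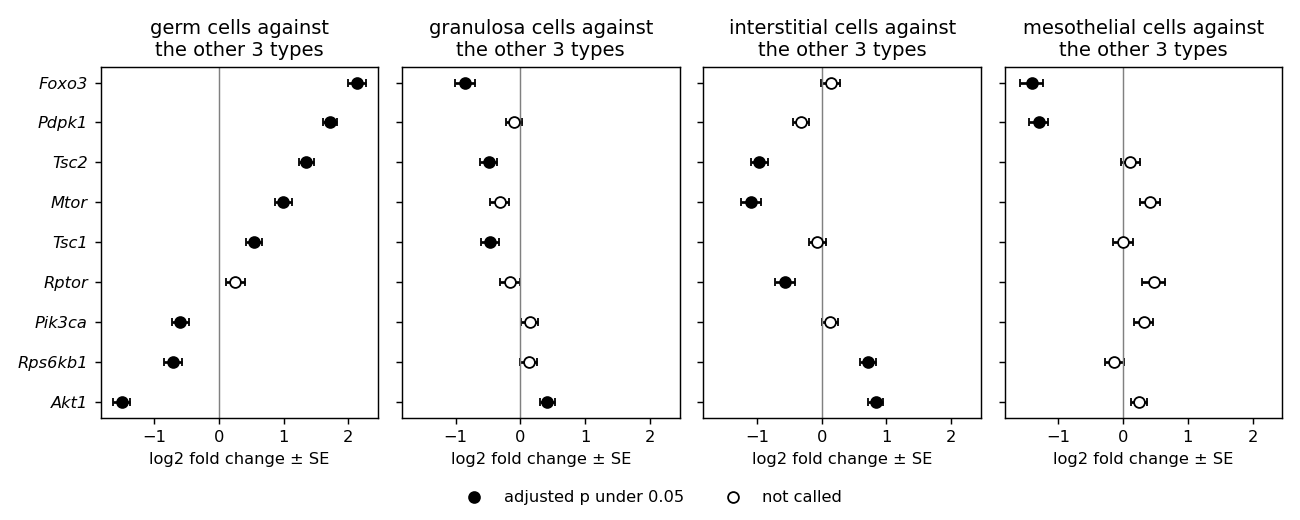
Log2 fold change of each member (horizontal axes, error bars are the standard error) in 1 gated cell type against the equally weighted mean of the other 3, with filled points for an adjusted p under 0.05. The values for germ cells ran from 2.13 for Foxo3 to -1.50 for Akt1, and the other 3 cell types stayed between 0.84 and -1.42.

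CPM values compare the makeup of the captured RNA, and germ cells held more UMIs than the other cells, so the picture changed when UMIs were counted per cell. Germ cells carried 879 and 506 Foxo3 UMIs per 100 cells in the 2 libraries against 33.2 and 38.4 in granulosa cells, a ratio of means of 19.4. The corresponding ratio was 11 for Tsc2, 10.9 for Pdpk1, 8.67 for Mtor, 7.27 for Tsc1 and 5.21 for Rptor. For Pik3ca and Rps6kb1, lower by CPM, germ cells had 2.77 and 2.68 times as many UMIs per cell as granulosa cells. Akt1 had 165 and 100.5 UMIs per 100 germ cells against 81.7 and 95.2 per 100 granulosa cells and 101.7 and 104.3 per 100 mesothelial cells, so that the germ cell value of replicate 2 lay below both mesothelial values. UMIs per cell also follow capture and sequencing depth.

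The share of cells with at least 1 UMI followed depth and was therefore set on a common scale of 2000 UMIs per cell, with 9 and 90 germ cells too shallow and left out. At full depth a Foxo3 UMI was found in 92.6% and 77.8% of germ cells and in 25.7% and 28% of granulosa cells. After thinning the shares were 25.7% (exact binomial 95% interval 20.1 to 31.9) and 21.9% (18.6 to 25.5) of germ cells, against 5.40% (4.32 to 6.66) and 5.31% (3.5 to 7.68) of granulosa cells. Interstitial cells had 7.01% and 10.7%, and mesothelial cells 6.03% and 4.42%. The intervals cover counting error only, and none of the 4 cell types is known to lack Foxo3, so no background share could be set beside these. Pdpk1 was found in 12.6% and 10.9% of thinned germ cells against 6.06% and 3.47% of granulosa cells, and Akt1 in 4.05% and 4.38% of germ cells against 12% and 10.6%. For Rptor all shares after thinning lay between 0.86% and 2.37%, too low to give an order.

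The somatic cell types also differed among themselves, and each had its own pattern. Compared directly, interstitial cells had more Foxo3, Pdpk1 and Rps6kb1 and less Mtor, Tsc2 and Rptor than mesothelial cells, beside 31.4% of all genes called. Granulosa cells had more Mtor and less Foxo3 than interstitial cells (40.4% of all genes called) and more Pdpk1 than mesothelial cells (19.3%). All these calls but that of Foxo3 between granulosa and interstitial cells were lost under at least 1 other setting. In granulosa cells, Akt1 was higher than this mean (log2 0.42, SE 0.12), and Foxo3 (log2 -0.85, SE 0.16), Tsc2 (log2 -0.49, SE 0.13) and Tsc1 (log2 -0.47, SE 0.14) were lower. These were 4 of 9 members against 45.5% of all genes (24.4% higher and 21.1% lower). By mean CPM, though, Akt1 was higher in interstitial than in granulosa cells (83.3 against 70.7). Granulosa cells also had more Foxo3 than mesothelial cells (28.6 against 19.9) and more Tsc2 than interstitial cells (14.2 against 10.5). None of these pairs was called. The calls for Akt1, Tsc1 and Tsc2 were each lost under at least 1 other setting, among them doubled gate thresholds for Akt1 and Tsc2. In interstitial cells, Akt1 (log2 0.84, SE 0.12) and Rps6kb1 (log2 0.72, SE 0.13) were higher and Mtor (log2 -1.10, SE 0.15), Tsc2 (log2 -0.96, SE 0.13) and Rptor (log2 -0.56, SE 0.16) were lower, 5 of 9 against 51.7% of all genes (26.2% higher and 25.5% lower). The call for Rptor was lost with no filter on low counts and with the summed reference, and thinning to 2000 UMIs turned its direction (log2 0.21). Only 2.04% and 1.58% of the thinned interstitial cells held an Rptor UMI. In mesothelial cells, Foxo3 (log2 -1.42, SE 0.18) and Pdpk1 (log2 -1.30, SE 0.15) were lower and no member was higher, 2 of 9 against 37.2% of all genes (18.8% higher and 18.4% lower). Each of these contrasts shares cells with the germ cell contrast and has germ cells in its reference. They therefore do not show how the somatic types differ from one another.

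The order of the 4 cell types was clear for a few members only. Foxo3 ran from germ to interstitial to granulosa to mesothelial cells, and the first 2 steps passed the test (adjusted p = 8.72e-05 and 0.012, edgeR), whereas granulosa and mesothelial cells did not differ beyond their spread (adjusted p = 0.20). Pdpk1 ran from germ to granulosa to interstitial to mesothelial cells, and the step between granulosa and interstitial cells did not pass (adjusted p = 0.37, edgeR). Mtor and Tsc2 ran from germ to mesothelial to granulosa to interstitial cells. For Tsc2 the step from germ to mesothelial cells passed (adjusted p = 0.0012, edgeR), and for Mtor that step did not (adjusted p = 0.063), while the step from granulosa to interstitial cells did (adjusted p = 0.029). Thinning to 2000 UMIs ended the call of that Tsc2 step (adjusted p = 0.27, edgeR), of the last Pdpk1 step, from interstitial to mesothelial cells (adjusted p = 0.17), and of the Mtor step (adjusted p = 0.48). The Mtor step was also lost by DESeq2 (adjusted p = 0.091), with no filter on low counts (adjusted p = 0.14) and with doubled gates (adjusted p = 0.059). No step between neighbours passed for Tsc1, Rptor and Rps6kb1. For Akt1 and Pik3ca, the 3 somatic types did not differ between neighbours, and germ cells were last. In all, 31 of 54 comparisons of a member between 2 cell types were called, 22 of them with germ cells on one side. Over all genes, germ cells differed from granulosa cells for 75.5%, from interstitial cells for 74.5% and from mesothelial cells for 68.1%. Granulosa cells differed from interstitial cells for 40.4% of genes and from mesothelial cells for 19.3%, and the last pair, interstitial and mesothelial cells, for 31.4%.

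Foxo3 was most closely followed over the 8 sums by Nudt5, Sertad3, Znhit6, Nhej1 and 1110059G10Rik. The measure was the root mean square difference of log2(CPM + 1), here with CPM scaled by TMM, around the mean of the gene, which was 0.11 for Nudt5 and Sertad3, 0.14 for Znhit6, 0.17 for Nhej1 and 0.18 for 1110059G10Rik among 9016 genes with a mean of at least 10 CPM. Nudt5 had 145 CPM on that scale in germ cells against 30.1 in granulosa, 45.1 in interstitial and 21.5 in mesothelial cells. Of the other members, Pdpk1 came nearest, at place 265, and Akt1 was farthest, at place 6737.

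Cdkn1b, a known partner of Foxo3 in follicle dormancy, differed from it in where it was highest. The gene encodes the cell cycle inhibitor p27 and had 19.2 and 23.3 CPM in germ cells and 89.4 and 124 in granulosa cells. Interstitial cells had 11.7 and 17.5 and mesothelial cells 22.6 and 23.9 CPM. Against the equally weighted others it was lower in germ cells (log2 -0.57, SE 0.21), although germ cells lay above both interstitial values and near the mesothelial ones, and higher in granulosa cells (log2 2.36, SE 0.18).

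Of 92 other pathway genes tested, 47 were higher in germ cells, 25 were lower and 20 were not called, with a median log2 fold change of 0.47. Among receptors and adaptors, a list that also holds Kitl, the gene of the Kit ligand, 1 of 10 was higher and 6 were lower. Kit, the receptor on the oocyte, had 225 and 149 CPM in germ cells and 1.41 to 5.10 elsewhere (log2 6.08, SE 0.26), and the adaptor Irs1 had 0.18 and 0.70 against 6.54 to 23.1 (log2 -4.83, SE 0.45). Of the PI3K subunits, 6 of 9 were higher and 2 were lower. This list is not limited to class I and also holds Pik3c2a, Pik3c3 and Pik3r4. The catalytic subunit gene Pik3cd had 35.5 and 26.6 CPM in germ cells and 0.46 to 7.78 elsewhere (log2 4.17, SE 0.24), while the regulatory subunit gene Pik3r1 was lower (log2 -1.23, SE 0.13). Germ cells thus had less Pik3ca and more Pik3cd by CPM than the other types.

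Of the 5 other AKT and FOXO genes, 3 were higher and 2 lower, Foxo6 most so (log2 -1.62, SE 0.33). Among the inhibitors of PI3K, 3 of 8 were higher and 1 was lower, from Inpp5d (log2 4.26, SE 0.50), at 4.82 and 2.97 CPM in germ cells, to Pik3ip1 (log2 -0.67, SE 0.22). Of the 3 genes around Rheb, Rhebl1, a paralog of Rheb, was higher (85.6 and 84.6 CPM against 2.36 to 6.02, log2 4.33, SE 0.15), Tbc1d7 was higher too, and Rheb was not called.

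Of the genes around mTOR complex 1, those of LKB1 and AMPK and those of amino acid sensing were mostly higher in germ cells. Of the LKB1 and AMPK genes, which restrain the complex when energy is low, 8 of 9 were higher and none was lower, led by Prkaa2, a catalytic AMPK subunit (log2 3.07, SE 0.24). Of the amino acid sensing genes, 13 of 18 were higher and 3 were lower. Nprl2, a subunit of the GATOR1 complex that restrains mTOR complex 1, had 195 and 209 CPM in germ cells against 13.3 to 24.9 elsewhere (log2 3.63, SE 0.12), and the Rag GTPase gene Rragd was lower (log2 -3.95, SE 0.52). Of 7 other subunits of the mTOR complexes, 2 were higher, among them the inhibitor Deptor (log2 2.29, SE 0.31), 1 was lower, Prr5l (log2 -4.23, SE 0.54), and 4 were not called. Of the 9 translation outputs, 5 were higher and 2 lower, and the 2 inhibitors of cap-dependent translation went opposite ways, Eif4ebp1 up (418 and 398 CPM against 84.0 to 171, log2 1.76, SE 0.10) and Eif4ebp2 down (log2 -1.47, SE 0.12).

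Of 14 known FOXO target genes, 4 were higher and 8 were lower in germ cells, where Foxo3 was highest. Bnip3, which acts in mitophagy, had 145 and 133 CPM in germ cells against 0.47 to 18.5 elsewhere (log2 4.48, SE 0.20). Klf6, a transcription factor gene that also responds to cell stress, had 12.2 and 26.7 against 91.5 to 589 (log2 -3.39, SE 0.45). Counts of all these lists stand beside 42.1% of genes higher and 35.0% lower over the whole table.

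**Figure D3:**
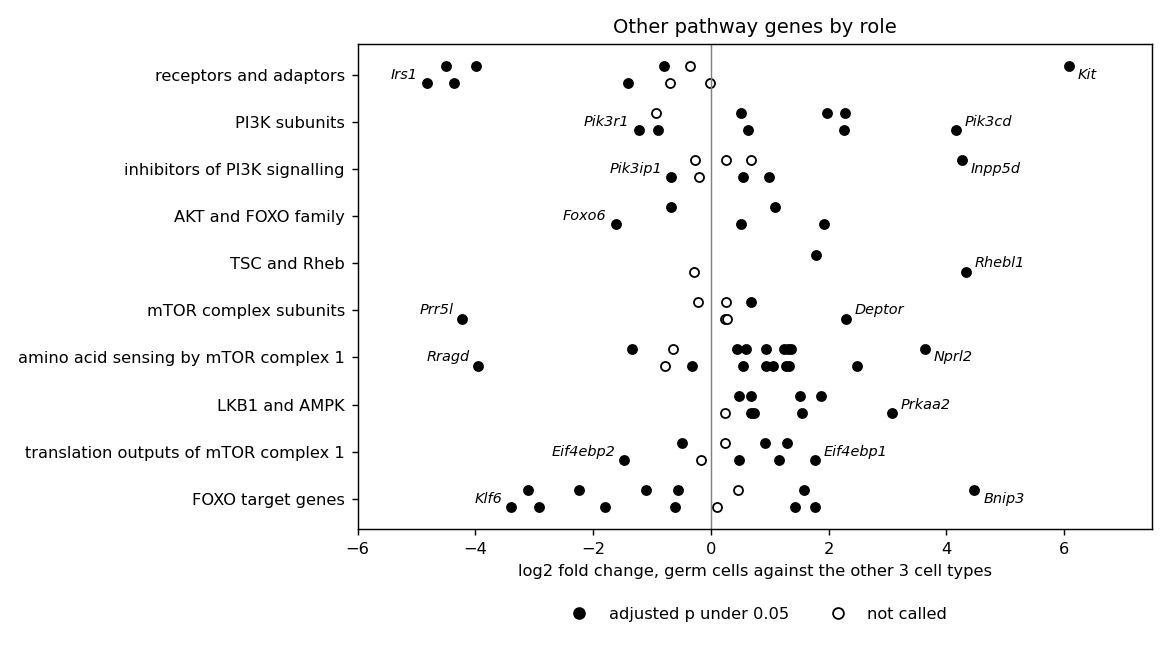
Log2 fold change of the other pathway genes in germ cells against the other 3 cell types (horizontal axis), 1 point per gene in 1 row per role, filled for an adjusted p under 0.05, with the called genes at the ends of most rows named. All 9 LKB1 and AMPK genes lay above 0, while 8 of 14 FOXO target genes were called lower, Klf6 at -3.39.

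Oocytes switch Zp3 on as they grow, and the split by Zp3 asked whether the members differ between germ cells of high and low Zp3. Each germ cell was thinned to 20000 UMIs, and 24 and 240 shallower cells were left out. The rest were split at the median Zp3 count of their library, 19 UMIs in replicate 1 and 10 in replicate 2. Cells with 11 to 19 Zp3 UMIs were thus low in replicate 1 and high in replicate 2. This gave 101 high and 106 low cells in replicate 1 and 206 and 215 in replicate 2. At least 1 Zp3 UMI was found in 94.3% and 81.4% of the low cells of replicates 1 and 2. The split therefore does not set growing apart from dormant oocytes. No member was called between the classes by edgeR, as against 0.732% of 10796 genes. An unadjusted p under 0.05 was reached by 3 of the 9 members and by 1783 of the 10796 genes. DESeq2 called no member either, but it gave an adjusted p to only 4307 genes, of which it called 3.74%. A member without an adjusted p could not be called there. Both classes of a library come from the same pups. A block for the library takes out the difference between the libraries, and the 4 sums then leave little to measure the spread of a single gene. With the library as a block, 3 members were called, against 22.2% of all genes (12.7% higher and 9.50% lower): Mtor and Tsc2 were higher and Foxo3 was lower in cells with high Zp3.

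Mtor had 47.0 CPM in the high and 23.1 in the low class of replicate 1, and 29.4 and 19.5 in replicate 2. The high class exceeded the low class in both libraries, by log2 0.85 (SE 0.26, adjusted p = 0.19 by edgeR) without the block and 0.80 (SE 0.17, adjusted p = 1.02e-04) with it. Tsc2 had 50.5 and 26.9 in replicate 1 and 39.3 and 26.5 in replicate 2, a difference of log2 0.76 (SE 0.18, adjusted p = 0.13 by edgeR) without and 0.73 (SE 0.16, adjusted p = 9.30e-05) with the block. At least 1 Mtor UMI was found in 63.4% (exact binomial 95% interval 53.2 to 72.7) of high and 40.6% (31.1 to 50.5) of low cells of replicate 1, and in 45.6% (38.7 to 52.7) and 32.1% (25.9 to 38.8) of those of replicate 2. These intervals cover counting error only. By CPM, the low classes of the 2 libraries were close to each other for both genes, and the high classes were farther apart.

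Foxo3 went the other way, with 98 CPM in the high and 142 in the low class of replicate 1, and 114 and 130 in replicate 2. The classes did not overlap. The difference was log2 -0.32 (SE 0.13, adjusted p = 0.29 by edgeR) without and -0.29 (SE 0.09, adjusted p = 0.0073) with the block. Taken alone, replicate 1 gave log2 -0.52 and replicate 2 gave -0.15. At least 1 Foxo3 UMI was found in 83.2% (74.4 to 89.9) of high and 88.7% (81.1 to 94.0) of low cells of replicate 1. In replicate 2 the shares were 87.9% (82.6 to 92.0) and 90.2% (85.5 to 93.9), so the intervals overlapped in both libraries. The remaining 6 members were called in neither fit. Pdpk1 had 73.8 and 69.8 CPM in the high and low class of replicate 1 and 63.1 and 62.8 in replicate 2. The high class of both libraries had the lower value for Rptor (log2 -0.20, SE 0.24) and Rps6kb1 (log2 -0.17, SE 0.17). For Tsc1 (log2 0.73 in replicate 1 and -0.22 in replicate 2) and Akt1 (0.22 and -0.02) the libraries gave opposite directions, and for Pik3ca (0.83 and 0.04) unequal sizes.

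**Figure D4:**
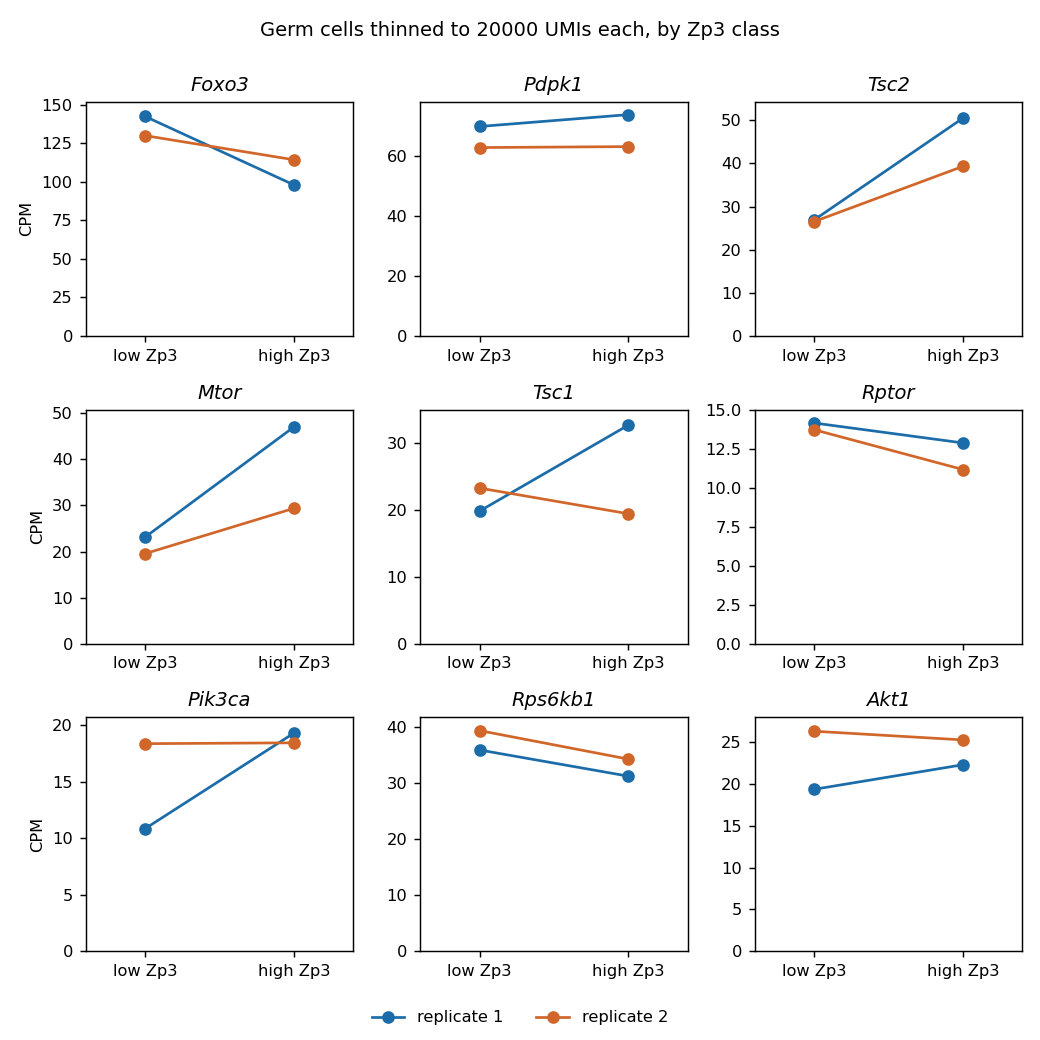
CPM of the 9 members (vertical axes, linear, from 0) in germ cells of low and high Zp3, each cell thinned to 20000 UMIs, with 1 line per library. Lines for Mtor and Tsc2 run upward in both libraries and those for Foxo3 downward, from 142 to 98 and from 130 to 114.

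Total UMIs before thinning moved with the Zp3 class, with medians of 94334 in the high and 72068 in the low class of replicate 1 and 70714 and 55429 in replicate 2. When cells were split by Zp3 within quartiles of their total UMIs, the difference was log2 0.35 for Mtor, 0.39 for Tsc2 and -0.21 for Foxo3, and no gene was called (0.00% of 10793, with 918 at an unadjusted p under 0.05), nor was any member with the block, where 10.6% of genes were. Cells of the upper against the lower tertile of Zp3 differed by log2 1.2 for Mtor (adjusted p = 0.037 by edgeR), the only member called in that split, against 7.55% of all genes. Of all genes, 3.88% were called with no filter on low counts, where 2 members were, and 13.8% at 10000 UMIs per cell with the block, where 1 member was. Zp3 itself had 1794 and 1213 CPM in the high classes and 482 and 181 in the low ones, which the split fixes. Of 10 other oocyte growth genes, 5 were higher in the high class without the block and 9 with it. Among the 10, Ooep is also a gene of the germ gate, and Zp1 and Zp2 are zona pellucida genes like Zp3. The list is therefore no independent check of the split. Over all genes, 0.732% were called in either direction without the block, and 12.7% were higher with it. Figla, the gene not called higher with the block, had 1088 and 1206 CPM in the high and low class of replicate 1. In replicate 2 it had 1000 and 1087. The granulosa gate genes stood at 6.44 and 7.55 CPM in the high and low class of replicate 1 and at 59.5 and 50.5 in replicate 2. The granulosa genes outside the gate stood at 8.42 and 8.02 CPM in replicate 1 and, in the other direction, at 19.4 and 25.3 in replicate 2. Interstitial gate genes stood at 21.3 and 16.04 CPM in replicate 1 and at 34 and 54 in replicate 2, so these also went opposite ways. Mitochondrial UMIs were at 2.30% and 2.75%, and at 2.46% and 3.13%, lower in the high class of both libraries. The part of depth, RNA of other cells and mitochondrial UMIs in these differences was not tested further.

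Of 81 other pathway genes tested between the Zp3 classes, none was called without the block by edgeR. An unadjusted p under 0.05 was reached by 17 of them, beside 1783 of all 10796 genes. DESeq2 called none of the 81 either, but only those among the 4307 genes with an adjusted p could be called. With the block in edgeR, 17 were higher and 5 lower, beside 12.7% higher and 9.50% lower over all genes. Within depth quartiles with the block, 6 of 82 were higher and 4 lower, beside 10.6% of all genes called. Cdkn1b had 14.4 and 23.6 CPM in the high and low class of replicate 1 and 19.9 and 23.3 in replicate 2, and was not called in either fit.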

How the data were processed

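Dissociated P2 ovaries were sequenced cell by cell in 2 libraries (Chromium 3′ kit, version 2 per the labels and version 3 per the methods of the study). The authors deposited UMI counts as whole numbers for each gene in each cell barcode, unnormalized and made with Cell Ranger 3.0.2 on GRCm38 per the submitters' processing notes. The libraries held 54471790 UMIs in 4094 cells and 59074480 UMIs in 4847 cells.

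Cells under 500 genes or over 10% mitochondrial UMIs were dropped, and 111 and 137 doublets (Scrublet score above 0.19, scanpy 1.11.5) went too, which left 3627 and 4327 cells. A cell was gated at 5 (germ), 6 (granulosa), 10 (interstitial) or 2 (mesothelial) marker UMIs per 10000, thresholds set after the marker distributions were seen. In all, 3247 and 3752 cells passed 1 gate, 305 and 292 none, and 75 and 283 several. The filters, doublet calls and clusters of the study itself were not used here.

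UMI counts were summed per library and gated type (8 sums) or per library and Zp3 class (4 sums) and tested with edgeR 4.0.16 (R 4.3.3; filterByExpr, TMM, quasi-likelihood test), with Benjamini-Hochberg adjustment over all genes tested and a threshold of 0.05. The fit without the block was checked on simulated data that held no shared difference between the libraries. That check therefore does not cover sums paired by library. CPM values are UMIs per 1000000 UMIs of a sum, and only those behind the likeness to Foxo3 were scaled by TMM. Cell types of a library come from the same pups, so replicate numbers pair the sums. The deviations of a library from the mean correlated by 0.078 to 0.25 between its cell types and by 0.62 between its Zp3 classes. The library entered as a block in an alternative fit, and DESeq2 1.42.0, no filter on low counts, scaling by library size, a summed reference, other gates, clusters, thinning and cell filters were further alternatives. Splitting by depth quartile with the block, and 10000 UMIs with the block, were chosen after seeing the data. p-values of fits without the block measure the spread between 2 pools of littermates. The block takes out the mean difference between the libraries. Its p-values measure how far the differences between sums vary from library to library, with an estimate of spread that borrows from other genes.

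The members and the pathway lists were chosen with earlier results of these data known. All members were named, with Cdkn1b, the called gene of largest increase and decrease per pathway list, and the 5 genes most like Foxo3. The named genes leave out 2 genes of the lists, which are not reported here. Of 93 other pathway genes, Castor1 was not among the deposited genes. Positions come from GENCODE annotation of GRCm38, and upstream sequences from RefSeq. Neighbouring genes and the lists' remaining values were read after the results were seen.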

Additional observations from a re-analysis of the deposited data

Results flagged for a closer look

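The comparisons left out 305 and 292 cells that passed no gate, and all 9 members were present in them, above the limit of 1.01 and 1.22 CPM that a count of 0 allows there. Foxo3 had a mean of 24.7 CPM in these cells (24.3 and 25.1 in the 2 libraries), between the mesothelial and granulosa values. Akt1 stood at 70.1, Rps6kb1 at 50.1 and Pik3ca at 24.9, within or close to the range of the gated somatic cells. Pdpk1 had 18.2, Tsc1 17.2, Mtor 16.3, Rptor 12 and Tsc2 9.08. The ungated cells carried markers of other types, with 1062 and 444 endothelial, 659 and 1057 immune and 321 and 286 perivascular CPM of marker genes, against 0.76 to 198 in the gated types. The ungated cells also had 456 and 458 CPM of the granulosa genes outside the gate, against 520 and 583 in gated granulosa cells. Gated mesothelial cells had more of these genes than granulosa cells, at 1403 and 825 CPM, so the genes do not tell the 2 types apart. Mesothelial genes outside the gate stood at 185 and 295 CPM in the ungated cells, against 1439 and 1244 in gated mesothelial cells. Erythroid genes were at 65.8 and 1197 CPM. The ungated cells are thus a mixture that can include cells of the gated types, and the members were not compared within it.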

How the results depend on the processing

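With 2 libraries, only large differences relative to the spread can be called, and the summed mesothelial cells and the thinned cells held the fewest UMIs. Asking for over 2-fold as well left 4 of 8 members in germ cells, 0 of 4 in granulosa and 1 of 5 in interstitial cells, 15 of 31 calls between pairs, and 47 of 72 pathway genes in germ cells. Doubled gate thresholds left 2 members in granulosa cells. Thinning to 2000 UMIs left 2 in granulosa cells and 18 calls between pairs. Shares of all genes at these settings are not given here. The log2 fold change of Foxo3 in germ cells kept its call in 10 tested alternatives, from 1.78 to 2.17, and was 2.07 and 2.21 without replicate 1 and without replicate 2.

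Between Zp3 classes, 3 members were called with the replicate block (Mtor, Tsc2 and Foxo3), 2 with no filter on low counts, 1 between the upper and lower tertile and 1 at 10000 UMIs with the replicate block, against 0 as reported. Over all genes, 79 were called as reported, 2394 with the replicate block, 752 between tertiles and 701 with no filter. DESeq2 called 161 of the 4307 genes to which it gave an adjusted p. Within depth quartiles 0 were called, or 1144 with the block, and 1283 were called at 10000 UMIs with the block. The block changed no other call of a member against the other cell types. Scaling by library size alone moved the median of all genes by -0.11 between germ and granulosa cells.

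These log2 values changed sign, of which only Rptor in interstitial cells was called as reported. After thinning, Rptor was at -0.72 in germ, 0.42 in granulosa and 0.21 in interstitial cells, Pdpk1 at 0.038 in granulosa, Tsc1 at 0.10 in interstitial and Rps6kb1 at 0.045 in mesothelial cells. Rptor UMIs were then found in only 0.86% to 2.37% of the cells of a type and library. Against the summed reference, Rptor was at 0.10 in granulosa, Foxo3 at -0.73 in interstitial (adjusted p = 0.044 by edgeR), and Tsc1 at 0.069, Tsc2 at -0.10 and Rps6kb1 at 0.045 in mesothelial cells. With no filter, Tsc1 was at 0.052 in interstitial and Tsc2 at -0.015 in mesothelial cells. In mesothelial cells, Tsc1 was at 0.025 by DESeq2 and 0.039 with clusters in place of gates, and Tsc2 at -0.094 with doubled gates. Within depth quartiles of the Zp3 split, Pdpk1 was at -0.11, or -0.10 with the block, and Rptor at 0.0012 with it. The cause of these changes was not tested.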
